A study of Mus musculus with 23 samples.

Results

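Macrophages sorted from HPV-positive MEER tumours were set against the tumour line that those tumours were grown from, with the weight on ligands and receptors. The 3 libraries labelled as HPV-positive macrophage and the 3 labelled as HPV-positive tumour were taken, 6 of the 23 libraries analysed. The signalling genes came from a table of 149 ligand and receptor pairs, 235 of whose genes were measured (130 with a ligand role and 106 with a receptor role, 1 gene having both). HPV-positive MEER cells are mouse oropharyngeal epithelial cells made tumorigenic with the E6 and E7 oncogenes of human papillomavirus 16 and activated Ras. How the HPV-negative MEER line was made tumorigenic is not reported here. Each macrophage library was made from cells of subcutaneous MEER tumours in C57/Bl6 mice, pooled from 3 to 4 animals and sorted as CD45+CD11b+Gr1-F4/80hi, so every library averages over its mice. The 3 line libraries are aliquots of a single line grown in vitro. P-values therefore measure only spread between pools and aliquots of this kind, which may be technical. Cell type and growth in a mouse against growth in culture change together here and cannot be told apart. HPV-negative MEER (same strain) and the SCCVII squamous carcinoma model (another strain) entered the same statistical model and served for comparison. Each had 3 macrophage and 3 line libraries made in the same way, and these also enter the estimate of spread behind the p-values. Strain and tumour model change together in every comparison with SCCVII and cannot be told apart.

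Signals between cells depend on which cell makes the ligand and which carries its receptor. A ligand made in the tumour cell and read in the macrophage, or the reverse, is called paracrine, and a ligand read by the cell that makes it is called autocrine. In carcinomas the best known exchanges of this kind run from tumour-derived colony-stimulating factors to macrophages and from macrophage-derived growth factors and cytokines to tumour cells. RNA levels show where each partner is transcribed, and they do not show secretion, binding or signalling.

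The libraries held 26848759 to 31680904 assigned reads in macrophages and 28002705 to 36024739 in the line. Levels are CPM, read counts scaled by trimmed means and by depth. Differences are log2 changes, macrophages minus line, from edgeR's quasi-likelihood test with Benjamini-Hochberg adjustment over 15794 genes. Their standard error (SE) was derived here as the absolute log2 change divided by the square root of the test's F statistic. Where a group has few reads, this SE can fall below counting error. A gene was called where the adjusted p was at most 0.05. All 16 genes of a macrophage identity list were higher in macrophages, led by Aif1 and C1qa, and their summed level in the line was 0.192% of that in macrophages. Of 6 genes listed for the sort gate, 5 were tested, with 4 higher in macrophages, each by at least 4-fold, and 1 lower. Only 3 are positive markers of the sort. A further gate gene was therefore higher without being a positive marker, and its level is not reported here. Ptprc, which encodes CD45, stood at 967, 993 and 1014 CPM in macrophage libraries 1, 2 and 3. Ly6g, part of the Gr1 antigen, had no read there. Ly6c1, a related Ly6 gene, was at 1.61, 1.03 and 0.893 CPM in macrophages and at 195, 377 and 221 CPM in the line. In the line, the simple-epithelium keratin Krt8 reached 770, 741 and 491 CPM and Krt18 reached 765, 888 and 775 CPM, whereas the basal keratin Krt5 was at 0 in the line and Krt14 at 4.15, 0.796 and 0.215 CPM. The macrophage libraries also held keratin RNA, with Krt8 at 26.9, 28.3 and 22.7 CPM.

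RNA of other leukocytes was present in the macrophage libraries and differed among them. The T-cell list (10 genes) summed to 52.8 to 95.2 CPM there and the natural killer list (7 genes) to 81.8 to 165 CPM, against 21.6 to 70.5 and 36.1 to 61.3 CPM in the line. In the line 8 of the 10 T-cell and 6 of the 7 natural killer genes were below 0.1 CPM, so few genes carried its sums. Gene by gene, 9 of the T-cell and 6 of the natural killer genes were higher in macrophages, and 1 of each list was lower. Cd8a, a co-receptor of cytotoxic T cells, was at 19.5, 7.1 and 25 CPM in macrophage libraries 1, 2 and 3, and the cytotoxic granule protease gene Gzmb was at 35.1, 13.2 and 44.4 CPM. Macrophage libraries 1 and 3 were thus the higher ones, as they were by any margin for 9 of 10 T-cell and 6 of 7 natural killer genes. Under a stricter limit, 15 of 130 ligands and 19 of 106 receptors of the pairs exceeded library 2 by more than 1.5-fold in both libraries 1 and 3. The shares of all genes at either limit were not counted. The part of these other leukocytes in any result below was not tested. Dendritic markers Clec9a and Ccr7 were higher in macrophages and 6 of 7 tested genes of the list were, but its sum of 141 to 393 CPM overlapped the line's 156 to 223 CPM. Neutrophil genes summed to 83.4 to 100 CPM, mostly from Csf3r, with 5 of 5 tested genes higher in macrophages and Ly6g, Retnlg and Mpo near 0. The eosinophil list summed to 48.3 to 69.4 CPM and was nearly all Siglecf, with Epx, Prg2 and Il5ra near 0. Mast-cell genes summed to 10.3 to 20.8 CPM through Kit, with Tpsb2, Fcer1a and Ms4a2 near 0. B-cell genes reached 22.1 to 31.4 CPM (5 of 5 tested higher, Pax5 near 0), fibroblast genes 21.6 to 65.7 CPM (5 of 8 higher, 2 lower) and endothelial genes 157 to 189 CPM (5 of 6 higher, Tek near 0). None of 3 tested erythroid genes was called. In pooled sorted cells, fewer cells of a type and less RNA per cell cannot be told apart.

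**Figure D1:**
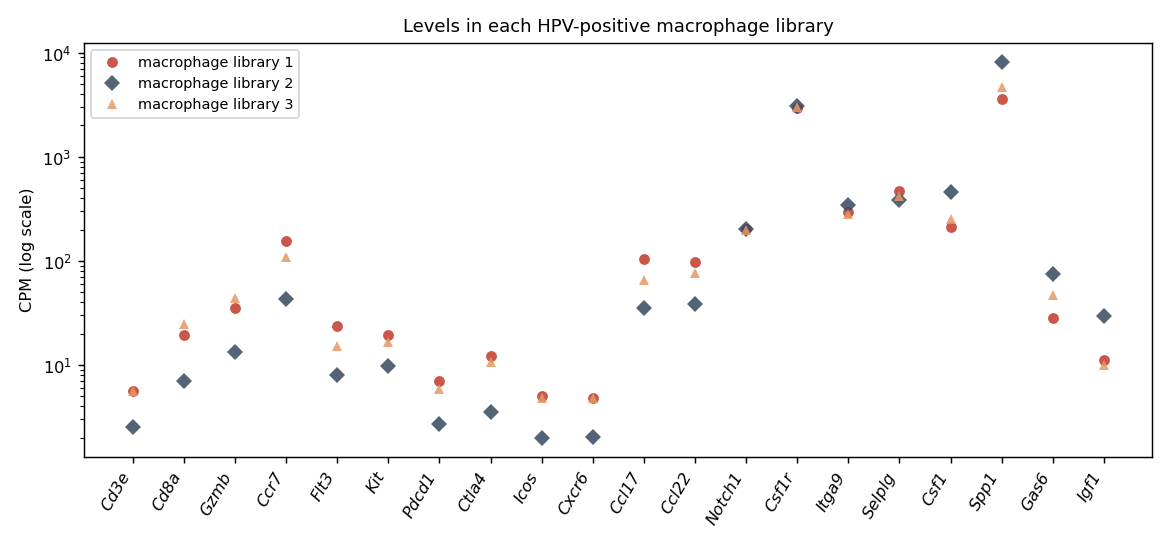
Levels of selected genes in each of the 3 HPV-positive macrophage libraries, in CPM on a log axis, one point per library. Library 2 is the lowest for lymphocyte and dendritic genes such as Cd8a (7.1 CPM) and Ccr7 (43.1 CPM) and the highest for Csf1 (454 CPM) and Spp1 (8209 CPM), while Csf1r varies little (2947 to 3081 CPM).

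The difference between macrophages and line covered most of the transcriptome: 6316 genes were higher in macrophages (40% of those tested) and 6175 lower (39.1%), and the groups did not overlap for 12081 of the 12491 called. Scaling by library size alone moved this split to 4255 higher and 8583 lower, with the median gene at −0.65 on the log2 scale, so changes are read relative to the median gene. A stricter class, used for the pairs, needed a 4-fold difference and at least 1 CPM in the higher group. It held 2459 genes on the macrophage side (15.6% of those tested) and 2051 on the line side (13%), and these are called split genes.

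Among split genes on the macrophage side, 284 had no read in any line library, and 83 on the line side had none in any macrophage library. Among the 10 most different genes on the macrophage side were 6 of that kind. Adamdec1, a protease gene of mature macrophages, was at 395, 639 and 478 CPM against 0, at least 18950-fold higher when the line is set at 3 reads over its libraries. Nos2, the inducible nitric oxide synthase, was at 414, 462 and 396 CPM against 0, at least 15920-fold higher. Sirpb1c, Klrb1b, the coagulation factor gene F10 and the class II gene H2-DMb2 were likewise absent from the line, at least 8988-fold higher. The remaining 4 of the 10 were pair genes, Osm, Csf2rb, Ccl24 and Il1b. On the line side the desmosome gene Dsp was at 92, 71.7 and 82.7 CPM with no read in macrophages, at least 1861-fold lower there. The potassium channel gene Kcnk1 and the tight-junction gene Cldn4 were at least 487-fold and 329-fold lower. Bpifb4, Igsf11 and Irx3 had 1 to 3 macrophage reads, and Thsd4, Cldn3, Zbtb7c and Cth differed by −9.24 ± 0.34, −8.85 ± 0.36, −8.84 ± 0.61 and −8.76 ± 0.47 (log2 ± SE).

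Of the pair genes, 225 were tested: 143 were higher in macrophages, 68 lower and 14 not called, with a median log2 change of 2.38 against 0 over all genes tested. Those counts stand against 40% higher and 39.1% lower over all genes. Split genes numbered 106 on the macrophage side and 47 on the line side, against 15.6% and 13% of all genes. By role, 71 of 122 tested ligands were higher and 42 lower (median 1.85), and 73 of 104 receptors were higher and 26 lower (median 2.68). With library-size scaling, 136 of 224 tested were higher and 72 lower (median 1.59). The other 10 measured pair genes were too low to test, and Flt3l and Tnfsf12 were not analysed here. Combining partners, 9 pairs had a split ligand in the line and a split receptor in macrophages, 12 pairs had the reverse, 35 had both partners split to macrophages and 10 had both split to the line. At least 1 partner was not split in 69 pairs, and 12 pairs held an untested gene.

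**Figure D2:**
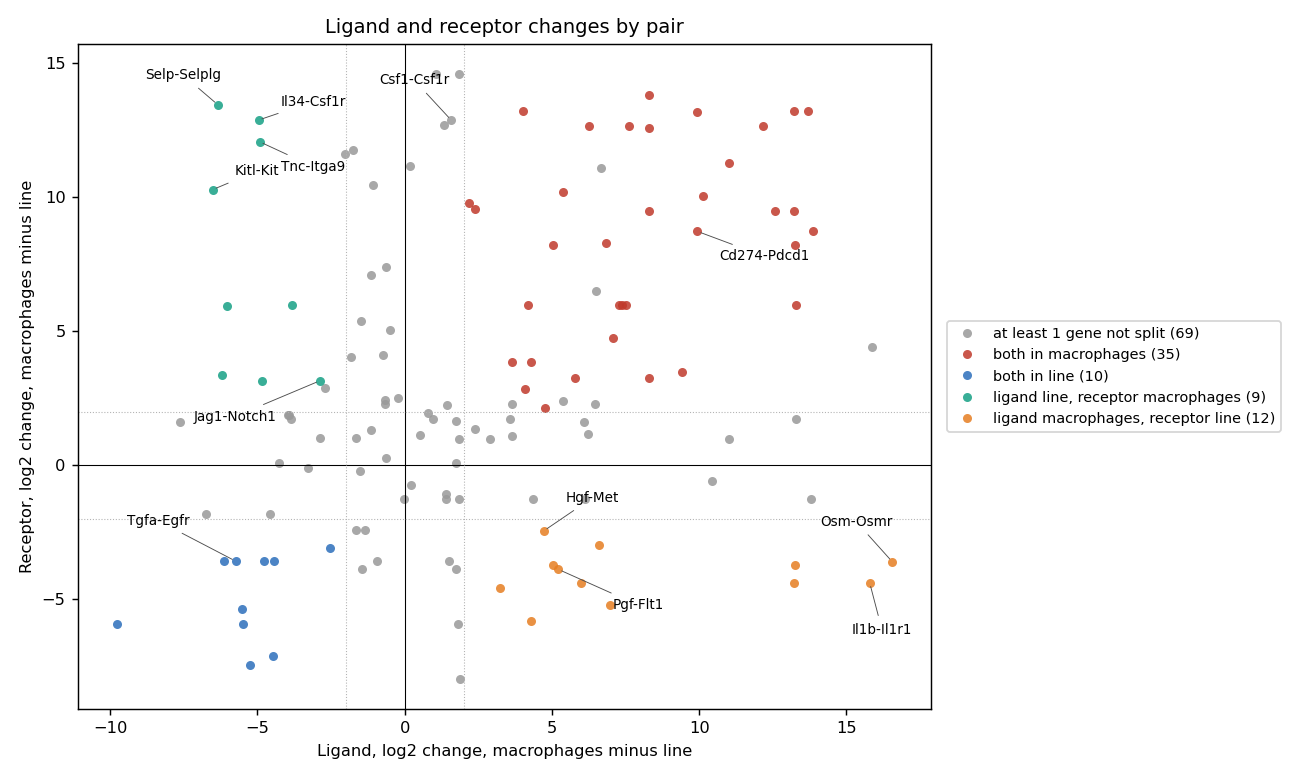
Each tested pair by its ligand's log2 change (horizontal) and its receptor's (vertical), macrophages minus line, coloured by class, with dotted lines at 4-fold. The 35 pairs with both partners in macrophages fill the upper right, 9 line-to-macrophage pairs the upper left and 12 macrophage-to-line pairs the lower right; fitted changes of genes with 0 to 3 reads in a group depend on the prior count.

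The colony-stimulating factor receptor on macrophages, encoded by Csf1r, has a pair of ligands, and they fell on opposite sides. Csf1r was at 2947, 3081 and 3027 CPM in macrophages and at 0.232, 0.22 and 0.741 CPM in the line (12.87 ± 0.36, adjusted p = 1.6e-14). Il34 (chromosome 8, 110741829 to 110805924, minus strand, GRCm38) was at 1.04, 1.71 and 1.58 CPM in macrophages against 53.5, 52.4 and 35.1 CPM in the line (−4.96 ± 0.49, adjusted p = 1e-07). The lowest line library exceeded every macrophage library. Csf1 (chromosome 3, 107741048 to 107760469, minus strand) went the other way, at 213, 454 and 254 CPM against 69.9, 129 and 120 CPM (1.58 ± 0.33, adjusted p = 0.00035), without overlap and under the 4-fold limit. Per transcript length, the line held similar amounts of both ligands, 70.8 ± 19.9 TPM of Il34 and 64.5 ± 19.5 TPM of Csf1 (transcript levels scaled by length and depth, mean ± SD, n = 3), while macrophages held 1.54 ± 0.57 and 114 ± 50.5 TPM.

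Stem cell factor, encoded by Kitl (chromosome 10, 100015630 to 100100416, plus strand), was a line transcript at 188, 145 and 124 CPM against 1.57, 1.93 and 1.34 CPM in macrophages (−6.51 ± 0.61, adjusted p = 5.9e-08). Its receptor gene Kit was at 19.4, 9.75 and 16.8 CPM in macrophages, with 1 read in the line. Kit is also a mast-cell and progenitor gene, and its lowest macrophage library was the one lowest in lymphocyte genes. The receptor genes for the granulocyte factors were on the macrophage side, Csf2ra at 579, 612 and 664 CPM and Csf2rb at 1944, 1713 and 1835 CPM. Their ligand gene Csf2 was too low to test in either compartment, at 0.237, 0.18 and 0 CPM in macrophages and 0.523, 0.192 and 0.239 CPM in the line. Csf3 was higher in the line (−2.01, adjusted p = 0.028) but low there, with a mean of 0.872 CPM, under the 1 CPM limit. Its highest line library reached 1.74 CPM. That call was lost without line library 1 (−1.05, adjusted p = 0.21), without macrophage library 2 (−1.44, adjusted p = 0.079) and with DESeq2 (adjusted p = 0.067). It was also lost with all 23 libraries (−2.17, adjusted p = 0.063) and when tested against a 2-fold change (adjusted p = 0.097).

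Interleukin-1 pairs ran from macrophages to the line. Il1a and Il1b encode the agonists, Il1rn the natural antagonist and Il1r1 the signalling receptor. Il1b (chromosome 2, 129364570 to 129371139, minus strand) was at 3444, 2694 and 3240 CPM in macrophages and 0.0871, 0 and 0.0717 CPM in the line (15.79 ± 0.68, adjusted p = 3.5e-12). Il1a was at 364, 372 and 363 CPM against 0.0871, 0.0275 and 0 CPM (13.23 ± 0.58, adjusted p = 4.9e-12). The antagonist was on the same side as the agonists, where Il1rn was at 683, 752 and 715 CPM against 23.8, 7.06 and 4.37 CPM (5.99 ± 0.47, adjusted p = 6.8e-09). By length-scaled level the macrophage order was Il1b at 3112 ± 379 TPM, Il1rn at 567 ± 17.8 TPM and Il1a at 240 ± 3.52 TPM (mean ± SD, n = 3), and neighbours in this order were further apart than their SDs. Il1r1 lay on the other side, at 2.23, 2.56 and 1.62 CPM in macrophages against 44.1, 53.8 and 41.5 CPM in the line (−4.39 ± 0.34, adjusted p = 4.4e-09).

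Oncostatin M, a cytokine of the interleukin-6 family, was also made on the macrophage side. Osm (chromosome 11, 4236420 to 4241026, plus strand) was at 1411, 971 and 1166 CPM in macrophages, and the line had 1 read in all (adjusted p = 7.2e-12). Its specific receptor chain Osmr was low on both sides, at 0.0475, 0.18 and 0.0812 CPM in macrophages and 0.61, 2.11 and 1.27 CPM in the line (−3.59 ± 0.79, adjusted p = 0.00055). The groups did not overlap, but Osmr's line mean sits just above the 1 CPM limit, and the pair was no longer split without line library 2. Il11 ran from line to macrophages and falls outside the limit of 4 pairs a family, so it was chosen after its values were seen. It was at 0.0475, 0.0899 and 0.162 CPM in macrophages against 0.929, 8.95 and 14.2 CPM in the line (−6.19 ± 0.92, adjusted p = 1.2e-05), with line library 1 far under the other two. Its receptor chain Il11ra1 was at 48.3, 41.5 and 47.8 CPM against 4.15, 4.72 and 4.87 CPM (3.37 ± 0.13, adjusted p = 1e-12).

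Promoter sequences of 4 genes from the macrophage-to-line pairs are shown because they carry the matches described here: the ligand gene Il1a and its receptor gene Il1r1, and the receptor genes Osmr and Met. They are RefSeq windows of 300 bases on GRCm38.p6, 5′ to 3′ on the gene's strand. Capitals mark the match: TGANTCA, an AP-1-type pattern that allows any central base, and ACATTCC, the TEAD core. The first is in Il1a (central base C), Met (G) and Osmr (T), and the second is on the reverse strand in Il1r1. The windows are chr2:129309923-129310222 (minus strand) for Il1a, chr1:40266336-40266635 (plus) for Il1r1, chr6:17463707-17464006 (plus) for Met and chr15:6874264-6874563 (minus) for Osmr. The Il1r1 window belongs to a start inside the gene's full span of 40225080 to 40317257.
Il1a: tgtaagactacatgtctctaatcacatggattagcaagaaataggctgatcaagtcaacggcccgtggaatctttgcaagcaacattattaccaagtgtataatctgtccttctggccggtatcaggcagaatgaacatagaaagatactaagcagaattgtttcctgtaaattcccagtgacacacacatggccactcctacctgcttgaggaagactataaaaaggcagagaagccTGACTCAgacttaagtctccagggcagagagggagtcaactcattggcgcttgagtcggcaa
Il1r1: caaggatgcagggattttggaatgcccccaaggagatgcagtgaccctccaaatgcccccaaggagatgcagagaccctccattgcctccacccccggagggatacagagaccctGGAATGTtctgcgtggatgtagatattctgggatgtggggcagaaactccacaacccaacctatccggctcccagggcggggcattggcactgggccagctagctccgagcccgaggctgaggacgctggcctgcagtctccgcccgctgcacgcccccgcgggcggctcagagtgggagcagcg
Met: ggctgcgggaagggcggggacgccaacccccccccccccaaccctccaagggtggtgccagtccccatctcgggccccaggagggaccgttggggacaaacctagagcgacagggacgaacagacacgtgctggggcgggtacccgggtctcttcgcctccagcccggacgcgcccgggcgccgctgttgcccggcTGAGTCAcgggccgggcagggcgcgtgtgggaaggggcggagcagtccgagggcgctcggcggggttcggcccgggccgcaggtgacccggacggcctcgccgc
Osmr: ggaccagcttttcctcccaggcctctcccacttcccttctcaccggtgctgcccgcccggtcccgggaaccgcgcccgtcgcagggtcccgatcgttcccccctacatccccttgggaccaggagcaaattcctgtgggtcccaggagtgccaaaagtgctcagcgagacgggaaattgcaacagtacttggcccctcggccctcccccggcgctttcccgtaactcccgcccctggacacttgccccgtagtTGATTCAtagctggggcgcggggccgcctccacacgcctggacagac
The match begins 12 bases before the start site in Il1a, 135 before in Il1r1, 54 before in Met and 3 after in Osmr. Searched on both strands, TGANTCA was in 7.81% of all 32851 promoters of this length, ACATTCC in 3.85% and GAGGAAGT, a site form for PU.1 and other ETS factors, in 3.2%, and matches overlapped one another in 11 promoters. Of the 38 genes in pairs split between compartments, 27 matched the promoter table, with 39 promoters. TGANTCA was in 25.6% of these (Cd80, Dll1, Il11, Il1a, Il1rn, Itga9, Met, Osmr, Selp and Sema4d), ACATTCC in 2.56% (Il1r1) and GAGGAAGT in 0%. Over all split genes, GAGGAAGT was in 6.38% of 2305 promoters on the macrophage side and 2.22% of 1984 on the line side. TGANTCA was in 7.42% and 7.46%, and ACATTCC in 2.65% and 4.23%. A match describes letters in the window and is no evidence of binding.

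Other cytokines and their receptors were chosen for mention after their values were seen. Il10, an anti-inflammatory cytokine, was at 3.94, 3.01 and 3.98 CPM in macrophages with no read in the line, at least 137-fold higher. Il6 was low but higher in macrophages, at 17.8, 17.4 and 16.7 CPM against 0.0871, 1.21 and 1.84 CPM (4.07 ± 0.66). Il33, an alarmin of epithelial cells, was a line transcript at 5.46, 14.3 and 8.22 CPM against 1.23, 0.719 and 0.812 CPM (−3.29 ± 0.59). Il4ra, a receptor chain for interleukins 4 and 13, was at 1513, 1618 and 1517 CPM in macrophages against 47.9, 40.9 and 28.1 CPM. The ligand gene Il13 was too low to test.

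No CC chemokine pair was split between the compartments. In 9 of the 15 CC pairs both partners were on the macrophage side, and 5 held a gene too low to test (Ccl20, Ccl11, Ccl19 and the receptor gene Ccr4). Ccl2, a monocyte attractant (chromosome 11, 82035571 to 82037453, plus strand), was at 101, 114 and 99.5 CPM in macrophages against 0.813, 0.687 and 0.191 CPM in the line (7.63 ± 0.28, adjusted p = 5.3e-13). Its receptor gene Ccr2 was at 320, 272 and 307 CPM against 0.0581, 0 and 0.0717 CPM (12.65 on the log2 scale). Both roles therefore lay in the macrophage libraries. By length-scaled level Ccl24, an eosinophil attractant, led the macrophages' CC ligands at 1778 ± 397 TPM, followed by Ccl6 at 819 ± 325 TPM and Ccl3 and Ccl4 at 362 ± 12.5 and 350 ± 22.1 TPM (mean ± SD, n = 3). Ccl3 and Ccl4 did not differ beyond their spread. The Ccr4 ligand genes Ccl17 and Ccl22 were at 104, 35.1 and 65.6 CPM and at 96.8, 38.9 and 76.8 CPM, again lowest in macrophage library 2, each with 1 read in the line.

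Among CXC and CX3C chemokines 1 pair ran from line to macrophages and 5 of 11 were on the macrophage side for both partners. Cxcl5, a neutrophil attractant made by epithelia, was at 2.56, 5.99 and 2.82 CPM in the line against 0.142, 0.494 and 0.122 CPM in macrophages (−3.84 ± 0.74, adjusted p = 0.00027). Its receptor gene Cxcr2 was at 2.61, 3.73 and 2.52 CPM in macrophages against 0.0871, 0.0275 and 0.0239 CPM (5.98 ± 0.78, adjusted p = 6e-06). Cxcr2 is a neutrophil gene. Of the 9 neutrophil genes, the 5 tested were all higher in macrophages, Csf3r (74.2, 60 and 63.3 CPM) and S100a8 (0.57, 0.899 and 0.568 CPM) among them, while Ly6g, Retnlg and Mpo were near 0, and the part of such cells was not tested. Both levels are low, and the pair was not split when 5 CPM was required. Cxcl2, another Cxcr2 ligand, was by contrast on the macrophage side, at 1391, 1041 and 1200 CPM against 2.87, 10.4 and 7.36 CPM. Fractalkine, encoded by Cx3cl1, was not called (−1.09 ± 0.55, adjusted p = 0.083), at 15.7, 12.2 and 15.2 CPM in macrophages and 63.1, 20.5 and 11.6 CPM in the line. Line library 1 held most of it, and the groups overlapped. It was called in 5 alternatives: library-size scaling (−1.77, adjusted p = 0.012), upper-quartile scaling (−1.30, adjusted p = 0.046), all 23 libraries (−1.25, adjusted p = 0.044), and without line library 3 (−1.48, adjusted p = 0.019) or HPV-negative macrophage library 4 (−1.13, adjusted p = 0.024). The receptor gene Cx3cr1 was at 197, 359 and 313 CPM against 0.116, 0.11 and 0.382 CPM (10.44 ± 0.36, adjusted p = 2.2e-13). Cxcl12, whose product retains leukocytes, was nearly absent on both sides, at most 0.244 CPM in macrophages and 0.406 CPM in the line (−0.62 ± 1.13, adjusted p = 0.62). Its receptor gene Cxcr4 was a macrophage transcript at 198, 187 and 225 CPM against 1.77, 1.29 and 0.764 CPM (7.39 ± 0.34, adjusted p = 8e-12). The scavenging receptor gene Ackr3 was not called (0.27, adjusted p = 0.33), but was without macrophage library 1 (0.54, adjusted p = 0.044), and its sign flips with library-size scaling.

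In the epidermal growth factor family 4 of 7 pairs were split to the line for both partners and none was split between compartments. Areg, for amphiregulin, was at 156, 254 and 257 CPM in the line against 7.41, 6.16 and 9.66 CPM in macrophages (−4.79 ± 0.46, adjusted p = 8.3e-08). Ereg, for epiregulin, was at 130, 141 and 128 CPM against 1.9, 1.26 and 2.27 CPM (−6.14 ± 0.58, adjusted p = 5.6e-08). Tgfa was at 76.2, 55.6 and 54.6 CPM against 1.14, 1.12 and 1.1 CPM (−5.74 on the log2 scale). By length-scaled level the line's order was Areg at 428 ± 97.5 TPM, Hbegf at 100 ± 9.09 TPM, Ereg at 71.4 ± 4.71 TPM, Tgfa at 32.8 ± 7.74 TPM and Btc at 10.7 ± 2.14 TPM (mean ± SD, n = 3). Hbegf was lower in macrophages by less than 4-fold, at 63.4, 45 and 50.5 CPM in macrophages against 90.9, 112 and 116 CPM in the line (−0.95 ± 0.23, adjusted p = 0.0012). The receptor gene was low on both sides, with Egfr at 0.958, 6.04 and 8.22 CPM in the line and 0.095, 0.719 and 0.406 CPM in macrophages (−3.57 ± 0.77, adjusted p = 0.00049). Line library 1 stood below the other two for Egfr, as it did for Il11.

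Growth factors that act on vessels and stroma gave 3 macrophage-to-line pairs. Hgf (chromosome 5, 16553495 to 16620152, plus strand), the scatter factor, was at 25.2, 23.3 and 23.6 CPM in macrophages against 0.377, 1.7 and 0.717 CPM in the line (4.73 ± 0.34, adjusted p = 2e-09). Its receptor gene Met (chromosome 6, 17463800 to 17573980, plus strand) was at 40.9, 34.4 and 33.9 CPM against 153, 228 and 231 CPM (−2.44 ± 0.22, adjusted p = 3.3e-08). Both partners separated without overlap, although Met RNA was not absent from the macrophage libraries. Placental growth factor, Pgf, was at 216, 152 and 212 CPM in macrophages against 2.21, 5.68 and 8.15 CPM in the line (5.22 ± 0.44, adjusted p = 1.5e-08). Flt1, which encodes its receptor VEGFR1, was a line transcript at 108, 119 and 92.7 CPM against 7.84, 5.71 and 7.35 CPM (−3.88 ± 0.25, adjusted p = 5.8e-10). Flt1 is better known in endothelium and monocytes. Pdgfb was at 59.3, 69.8 and 66.8 CPM in macrophages against 0.377, 0.467 and 1.19 CPM (6.59 ± 0.25), and Pdgfrb at 1.95, 1.84 and 1.62 CPM against 7.43, 22.7 and 13.6 CPM in the line (−2.97 ± 0.66, adjusted p = 0.0006).

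Vegfa (chromosome 17, 46016993 to 46032369, minus strand), the main angiogenic factor, was abundant in both and higher in macrophages, at 862, 837 and 845 CPM against 296, 250 and 235 CPM (1.76 ± 0.09, adjusted p = 3e-11). The co-receptor gene Nrp1 was not called (0.08, adjusted p = 0.69), but was called lower with library-size scaling (−0.57, adjusted p = 0.0056), and its sign also flips with upper-quartile scaling. Both partners of the keratinocyte growth factor pair were in the line, with Fgf7 and Fgfr2 at −5.52 and −5.35 on the log2 scale, and Fgf2 was too low to test.

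In the transforming growth factor family no pair was split between compartments. Tgfb1 was at 854, 871 and 892 CPM in macrophages against 89.6, 73.4 and 66.4 CPM in the line (3.57 ± 0.21, adjusted p = 2.2e-10). Its receptor gene Tgfbr2 was expressed on both sides, at 275, 312 and 300 CPM against 94.1, 102 and 85.6 CPM (1.71 ± 0.12), a called difference under 4-fold. The isoforms differed in side: Tgfb2 was lower in macrophages (−3.87 on the log2 scale). Bmp4, a bone morphogenetic protein, was at 8.68, 18.5 and 22.6 CPM in the line with 1 read in macrophages, and its receptor gene Bmpr1a was lower in macrophages too (−5.90). The activin subunit gene Inhba was not called (0.51, adjusted p = 0.27), but was without line library 3 (1.09, adjusted p = 0.026), and its sign flips with library-size scaling.

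Both tested Notch1 pairs, with Jag1 and Dll1, ran from line to macrophages. Jag1, a Notch ligand, was at 162, 258 and 207 CPM in the line against 26.3, 31.2 and 24.9 CPM in macrophages (−2.88 ± 0.22, adjusted p = 5.3e-09). Dll1 was at 12.7, 8.51 and 7.86 CPM against 0.332, 0.225 and 0.406 CPM (−4.84 ± 0.46). Notch1 was at 203, 204 and 196 CPM in macrophages against 31.9, 24.1 and 14.5 CPM (3.15 ± 0.23, adjusted p = 2.1e-09), so the line had the receptor as well, at a lower level. The ligand gene Dll4 was too low to test. Jag2 was lower in macrophages (−1.65 ± 0.17) and Notch2 higher (1.03 ± 0.13), both under 4-fold, so neither Notch2 pair was split. Among guidance cues the semaphorin gene Sema4d was at 248, 226 and 249 CPM in macrophages against 28.9, 24.7 and 26 CPM (3.23 ± 0.10). Its receptor gene Plxnb1 was at 0.855, 1.12 and 1.14 CPM against 25.8, 24.6 and 27.8 CPM in the line (−4.59 ± 0.25). The ephrin pairs lay in the line for both partners, and the receptor gene Epha2 was there at 557, 501 and 561 CPM against 8.17, 8.09 and 9.78 CPM in macrophages. Its ligand gene Efna1 was also a line transcript (−5.50 on the log2 scale).

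Of the tumour necrosis factor family 1 pair ran from macrophages to line. Tnfsf10, which encodes the death ligand TRAIL, was at 6.65, 4.18 and 6.41 CPM in macrophages against 0, 0.0275 and 0.0955 CPM in the line (6.96 ± 0.64, adjusted p = 4.3e-08). Tnfrsf10b, its death receptor, was at 0.712, 1.44 and 0.771 CPM against 44.1, 32.7 and 35.8 CPM (−5.21 ± 0.33, adjusted p = 3.9e-10). Tnfrsf10b is also a p53 target. Tnf itself was at 153, 113 and 108 CPM in macrophages with 1 read in the line, and Tnfrsf1b, its second receptor, was a macrophage transcript too, at 501, 487 and 480 CPM against 8.54, 8.7 and 7.09 CPM. A further receptor gene of the line was Tnfrsf12a, for the TWEAK receptor, at 475, 511 and 554 CPM against 22.4, 18.6 and 19.4 CPM. The receptor gene Tnfrsf13c was too low to test.

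Among genes for engulfment and complement, Pros1 and Tyro3 formed the macrophage-to-line pair. Pros1, for protein S, a bridging ligand of the TAM receptors, was at 25.3, 37.2 and 29.4 CPM in macrophages against 1.63, 1.89 and 1.31 CPM in the line (4.30 ± 0.19, adjusted p = 6.5e-12). Tyro3 was at 35.9, 32 and 37.4 CPM in the line against 0.665, 0.405 and 0.731 CPM in macrophages (−5.81 ± 0.39, adjusted p = 8.9e-10). Gas6, the other bridging ligand, was also a macrophage transcript, at 28.3, 74.2 and 47.1 CPM against 2.64, 5.27 and 4.28 CPM (3.66 ± 0.46, adjusted p = 1.7e-06), highest in library 2. Mertk, another TAM receptor gene, took the opposite side, at 210, 284 and 229 CPM in macrophages against 19.7, 16.8 and 15 CPM (3.86 ± 0.19). The third, Axl, was transcribed in both and higher in macrophages by under 4-fold, at 1587, 1475 and 1612 CPM against 615, 849 and 809 CPM (1.09 ± 0.13). Cd47, the signal that inhibits engulfment, was on both sides and higher in macrophages, at 173, 169 and 175 CPM against 58.7, 76.6 and 76 CPM (1.34 ± 0.11, adjusted p = 7.4e-09). Its receptor gene Sirpa was at 1569, 1660 and 1592 CPM in macrophages against 0.232, 0.11 and 0.382 CPM (12.69 ± 0.23). Apoe, a lipid carrier, reached 6816, 10659 and 8524 CPM in macrophages against 5.52, 2.91 and 4.51 CPM. The complement component gene Hc was too low to test, and Mfge8, a bridging ligand for integrins, did not differ detectably (−0.01, adjusted p = 0.95), though it was called lower with library-size scaling (−0.68, adjusted p = 0.0052), and its sign flips with DESeq2's size factors.

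Both PD-1 ligand genes were macrophage transcripts. Cd274, encoding PD-L1 (chromosome 19, 29367455 to 29388095, plus strand), was at 749, 680 and 678 CPM in macrophages against 0.813, 0.659 and 0.741 CPM in the line (9.94 ± 0.19, adjusted p = 2e-16). The second PD-1 ligand, Pdcd1lg2, was at 203, 199 and 158 CPM with 1 read in the line. The receptor genes Pdcd1, Ctla4 and Icos are T-cell genes and were low, with Pdcd1 at 7.03, 2.7 and 5.85 CPM, Ctla4 at 12.3, 3.55 and 10.6 CPM and Icos at 5.03, 1.98 and 4.83 CPM in macrophage libraries. All of these were lowest in macrophage library 2, as were 9 of 10 T-cell genes. Cd80, a costimulator, was at 137, 108 and 118 CPM in macrophages against 6.01, 2.75 and 2.82 CPM (5.03 ± 0.32, adjusted p = 3.9e-10), and Cd86 was at 206, 207 and 203 CPM with 2 reads in the line. Their receptor gene Cd28, a T-cell costimulatory receptor, was higher in the line, at 68, 19.4 and 24.9 CPM against 3.28, 1.17 and 3.65 CPM (−3.73 ± 0.48, adjusted p = 2.7e-06). Pvr, the ligand gene of Tigit and Cd226, was lower in macrophages, at 64.9, 56.4 and 62.1 CPM against 91, 136 and 191 CPM (−1.14 ± 0.19, adjusted p = 4.4e-05), under 4-fold. Of the T-cell list, 8 of 10 genes were below 0.1 CPM in the line, Cd3d, Cd3e, Cd3g and Trac among them.

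Adhesion and matrix genes gave a pair of line-to-macrophage exchanges. Tnc, for tenascin C, was at 126, 249 and 240 CPM in the line against 7.74, 6.92 and 4.99 CPM in macrophages (−4.92 ± 0.84, adjusted p = 5e-05). Its integrin receptor gene Itga9 was at 294, 346 and 284 CPM in macrophages against 0, 0.0275 and 0.167 CPM (12.06 ± 0.45). Selp, P-selectin, was at 54.4, 9.03 and 8.91 CPM in the line against 0.332, 0.225 and 0.284 CPM (−6.35 ± 1.04, adjusted p = 6e-05), with line library 1 far above the other two. Its ligand-bearing partner Selplg was at 472, 385 and 419 CPM in macrophages against 0, 0.0275 and 0.0717 CPM (13.45 ± 0.28). Osteopontin, Spp1 (chromosome 5, 104435118 to 104441050, plus strand), was transcribed on both sides, at 3621, 8209 and 4688 CPM in macrophages against 2127, 2558 and 1780 CPM (1.41 ± 0.29, adjusted p = 0.00031). Its receptor gene Cd44 was lower in macrophages, at 390, 389 and 401 CPM against 694, 891 and 1005 CPM (−1.08 ± 0.14), again without overlap. The urokinase gene Plau, for a protease that activates plasminogen, was at 491, 572 and 488 CPM in macrophages against 7.23, 30.9 and 20.3 CPM in the line (4.78 ± 0.35). Its receptor gene Plaur was on the same side, at 760, 620 and 673 CPM against 134, 154 and 198 CPM (2.13 ± 0.17).

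**Figure D3:**
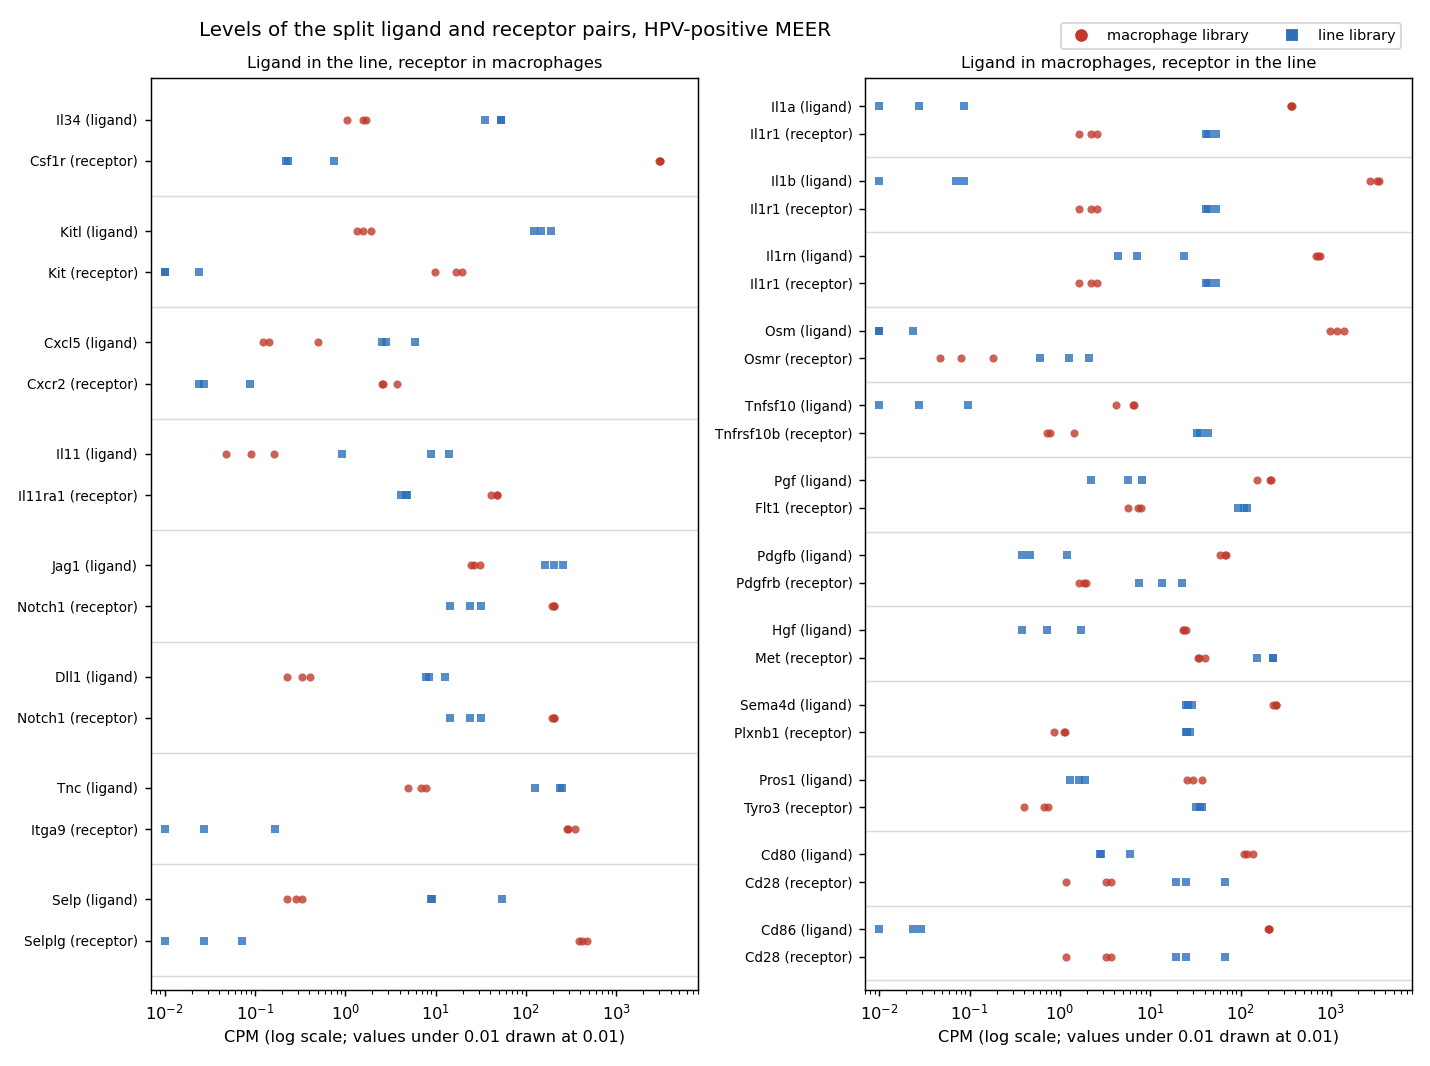
Levels of both genes of 8 of the 9 line-to-macrophage pairs (left) and the 12 macrophage-to-line pairs (right), in CPM on a log axis, one point per library, values under 0.01 drawn at 0.01. Macrophage and line points do not overlap for any of these genes, and some receptors are low even on their higher side, such as Osmr (0.61 to 2.11 CPM) and Cxcr2 (2.52 to 3.73 CPM).

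The division differed from that of the other models, and the difference was tested gene by gene for 10 genes as the change in HPV-positive MEER minus the change in the other model. Such differences were common, with 41.2% of genes called against HPV-negative MEER (3089 up and 3411 down, but 1937 and 5532 with library-size scaling) and 54.5% against SCCVII (4431 and 4179, but 2990 and 6052). Csf1 reversed its side: macrophage and line means were 307 and 106 CPM in HPV-positive MEER, 32.8 and 485 CPM in HPV-negative MEER and 5.31 and 729 CPM in SCCVII. The changes differed by 5.46 ± 0.49 (adjusted p = 3.3e-07) and 8.70 ± 0.53 (adjusted p = 1.4e-09). Cd274 was at 703 and 0.738 CPM, 96.1 and 5.18 CPM, and 24 and 9.17 CPM in the same order, a difference of 5.73 ± 0.21 (adjusted p = 2.3e-11) and 8.57 ± 0.21 (adjusted p = 5.9e-14). Vegfa was at 848 and 260 CPM, 150 and 185 CPM, and 28.1 and 425 CPM, a difference of 2.06 ± 0.13 (adjusted p = 7e-09) and 5.70 ± 0.13 (adjusted p = 2.9e-14). HPV-positive macrophages thus had the highest mean of all 3 macrophage groups for each of these genes.

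Cxcl12 was at 0.22 and 0.353 CPM here, 2.6 and 397 CPM in HPV-negative MEER, and 6.86 and 153 CPM in SCCVII. Its change differed by 6.60 ± 1.71 (adjusted p = 0.0055) and 3.87 ± 1.49 (adjusted p = 0.037), the second lost when any single HPV-positive library was left out (3.73 to 4.00), with library-size scaling (3.47, adjusted p = 0.062) and without macrophage libraries 1 and 3 (3.53, adjusted p = 0.33). The first was lost in that last setting too (6.28, adjusted p = 0.17). Osm was at 1183 CPM in macrophages here, 112 CPM in HPV-negative MEER and 20.6 CPM in SCCVII, and its difference was called against SCCVII (10.17 ± 1.27, adjusted p = 1e-05) and not against HPV-negative MEER (1.76 ± 7.40, adjusted p = 0.9), whose line had no read. Osmr was at 1.33 CPM in this line, 10.7 CPM in the HPV-negative line and 9.74 CPM in SCCVII, with a difference of 3.51 ± 1.39 against SCCVII (adjusted p = 0.043) that was lost without macrophage library 2 (2.89, adjusted p = 0.22), macrophage library 3 (3.67, adjusted p = 0.072), line library 1 (3.17, adjusted p = 0.058) or line library 3 (3.48, adjusted p = 0.061), without single libraries of the other models, and with library-size (3.12, adjusted p = 0.072) or upper-quartile scaling (3.41, adjusted p = 0.051). Against HPV-negative MEER it was 0.98 ± 1.18 (adjusted p = 0.55), and called under the replicate block (2.47, adjusted p = 0.047). Ccl2 lay between the models: its change was smaller than in HPV-negative MEER (−1.50 ± 0.41, adjusted p = 0.0083, lost without line library 1 at adjusted p = 0.054) and larger than in SCCVII (3.01 ± 0.34, adjusted p = 1.6e-06). Cx3cr1 was at 289 CPM in these macrophages, 981 CPM in HPV-negative MEER and 1556 CPM in SCCVII. Its differences of −2.15 ± 0.67 (adjusted p = 0.018) and −2.62 ± 0.67 (adjusted p = 0.0034) were lost without line library 3, at −1.27 and −1.74, and the first without HPV-negative line library 3 (−1.75, adjusted p = 0.062). Spp1 differed from HPV-negative MEER by 1.20 ± 0.40 (adjusted p = 0.025), lost without macrophage library 2 (0.79, adjusted p = 0.089), line library 3 (1.08, adjusted p = 0.059), HPV-negative macrophage library 1 or 2 or HPV-negative line library 3 (1.03 to 1.11), and with library-size scaling (0.85, adjusted p = 0.11). Against SCCVII Spp1 was not called (0.76 ± 0.40, adjusted p = 0.12), but was under the replicate block (0.71, adjusted p = 0.034) and without macrophage library 1 (0.99, adjusted p = 0.044). Csf1r was at 3018, 3182 and 3089 CPM in the 3 macrophage groups. Its change differed from SCCVII (2.23 ± 0.41, adjusted p = 0.0002), whose line held 1.88 CPM against 0.398 CPM here, and not detectably from HPV-negative MEER (−0.61 ± 0.52, adjusted p = 0.37). With all 23 libraries in the fit, the differences of Ccl2 and Cx3cr1 from HPV-negative MEER, of Cx3cr1 and Csf1r from SCCVII, and of Osmr and Spp1 above were not called.

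**Figure D4:**
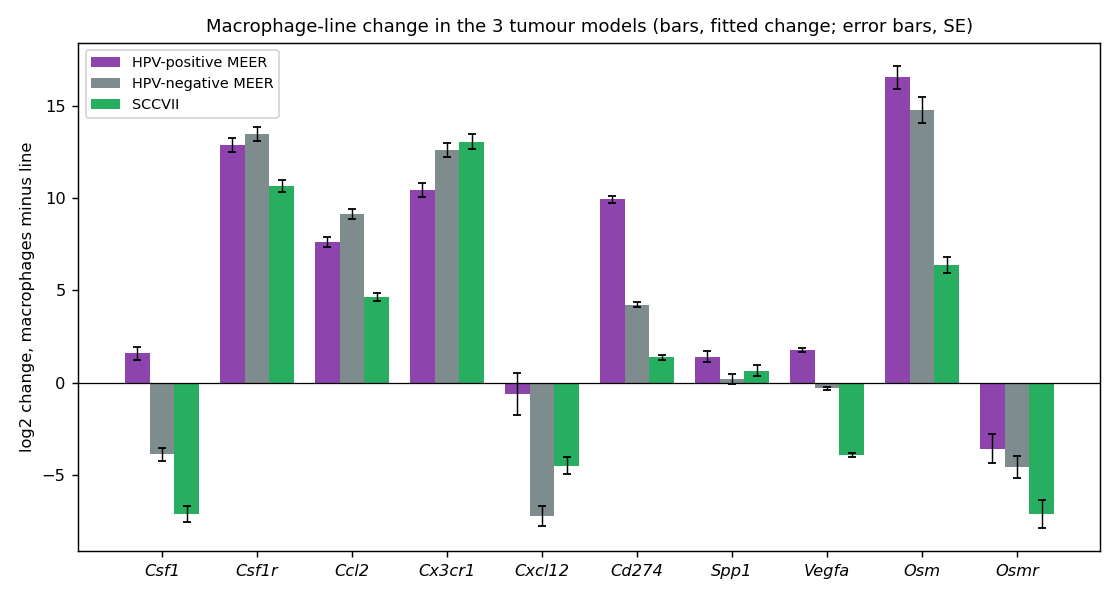
Fitted macrophage-minus-line log2 change of 10 genes in each of the 3 tumour models, 3 libraries a group. Bars are the fitted changes and error bars their SE, derived from the F statistic. Csf1 and Vegfa are above 0 in HPV-positive MEER (1.58 and 1.76) and below 0 in the other models, and Cd274 is largest in HPV-positive MEER (9.94); Osm's bars rest on 0 or 1 line reads in both MEER models.

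At the level of pairs, the same rule gave 9 line-to-macrophage pairs in HPV-negative MEER and 17 in SCCVII. Of the 9 found in HPV-positive MEER, 4 were shared with HPV-negative MEER (44.4% of each list) and 1 with SCCVII (11.1% and 5.88%). The macrophage-to-line pairs overlapped more: all 9 of HPV-negative MEER were among the 12 here (100% and 75%), and 7 of the 9 of SCCVII (77.8% and 58.3%). Pairs on the HPV-positive list alone included Cxcl5 with Cxcr2, Il11 with Il11ra1, Jag1 and Dll1 with Notch1, Pgf with Flt1, and Cd80 and Cd86 with Cd28. Whether these pairs differ between the models was not tested. Csf1 with Csf1r was a line-to-macrophage pair in both other models.

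Beyond signalling, antigen presentation marked the macrophages. All 11 class II genes were higher, with the invariant chain gene Cd74 at 23924, 21644 and 24461 CPM against 1.05, 0.549 and 1.34 CPM, and H2-Eb1 and H2-DMb2 changed most. All 15 class I pathway genes were higher, led by H2-Q6 (at least 6599-fold) and H2-Q7 (11.18 on the log2 scale), whose near-identical copies make their own values uncertain. The 6 Fc receptor genes were all higher, led by Fcgr2b and Fcgr4. Toll-like receptor genes were higher for 13 of 14, led by Tlr8 and Tlr1, and complement genes for 14 of 16, led by the integrin chain gene Itgax and C1qa, with the complement inhibitor gene Cd55 lower. All 12 myeloid transcription factor genes were higher, led by Spi1 and Ikzf1.

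Metabolic and degradative lists also leaned to macrophages. All 20 genes of glycolysis and hypoxia were higher, with the lactate transporter gene Slc16a3 at 10.52 and Car9, a hypoxia target, at 5.08 on the log2 scale. Lysosome genes were higher for 17 of 18, led by the cathepsin genes Ctss and Ctsc, but for 15 of 18 with library-size scaling, where Ctsl and Lamp1 turned lower; both were also lost without single libraries. Secreted proteases and inhibitors divided into 10 higher and 4 lower of 17, with the elastase gene Mmp12 (14.35) and Mmp9 (13.61) on the macrophage side and Timp3 (−6.31) and Plat (−2.91) on the line side. Cholesterol synthesis genes were higher for 12 of 20 and lower for 5, led by Pmvk and Insig1 and by Lss and Sc5d, a lean that was gone with library-size scaling (6 higher, 7 lower).

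Proliferation and epithelial lists leaned to the line. All 27 replication genes of the E2F list and all 22 mitotic genes were lower in macrophages, with Ccne2 at −3.17, Ccnb1 at −2.79 and Cenpf at −2.48 on the log2 scale. Targets of p53 divided, 7 higher with Gdf15 and Btg2 leading and 10 lower with Perp and Eda2r leading. Epithelial identity genes were lower for 13 of 16, with 2 not called and 1 higher, Cdh1, for E-cadherin, at 479, 380 and 515 CPM in macrophages against 34.3, 22.7 and 11.9 CPM in the line (4.37 on the log2 scale). Squamous transcription factor genes were lower for 6 of 9 tested, led by Grhl2 and Elf3, higher for 1 and not called for 2. Trp63, Grhl3, Tfap2c and Foxe1 were below 0.1 CPM in the line as well as in macrophages. Mesenchymal regulator genes were lower for 6 of 9, led by Snai2 and Cdh2, with Zeb2 higher. Basement membrane genes were lower for 9 of 12, led by Lama3 and Lama5, and higher for the other 3, of which 2 were split genes. Interstitial matrix genes divided 4 to 4 of 10, with Col5a2 and Col1a2 higher and Col6a1 and Sparc lower. Col5a2 was not called without macrophage libraries 1 and 3.

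**Figure D5:**
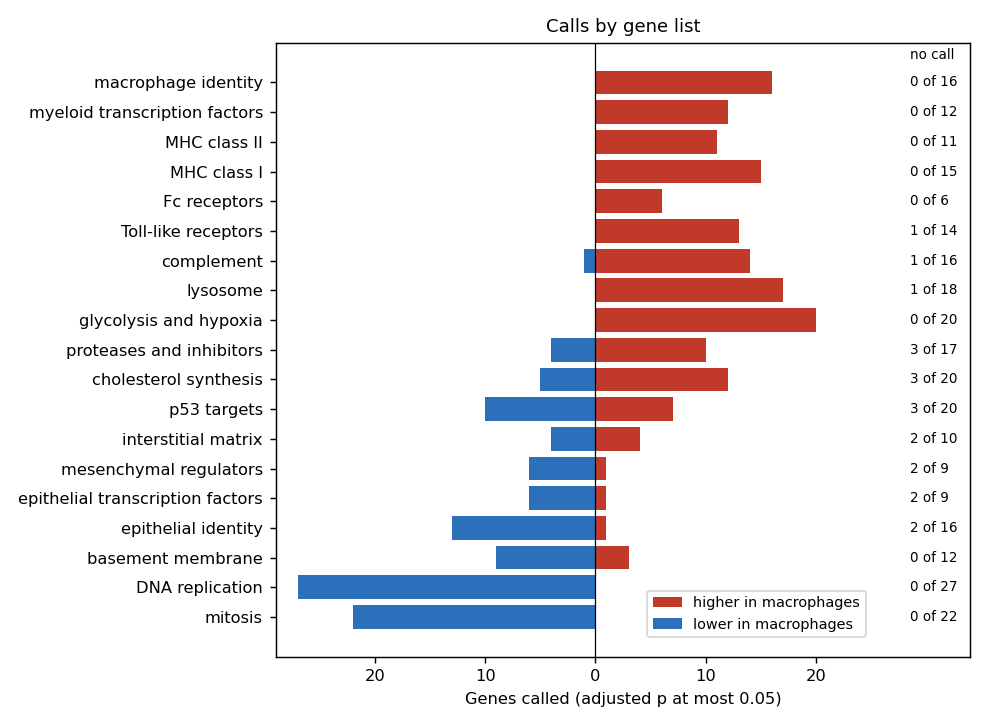
Number of genes in each list called higher (right, red) or lower (left, blue) in HPV-positive macrophages than in the line at adjusted p of at most 0.05, with uncalled genes of those tested at the far right. Replication (27 lower) and mitosis (22 lower) lie wholly on the line side and glycolysis and hypoxia (20 higher) wholly on the macrophage side; over all genes 40% were higher and 39.1% lower.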

How the data were processed

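RNA was sequenced from 23 samples, 18 of which (macrophages and lines of 3 models) entered the fit. The authors deposited expected counts and TPM per Ensembl gene (36793 genes, 95.8% matched to a symbol). Per the submitters' processing notes, the tools were FastQC, STAR 2.5.3a, RSEM 1.3.0 and MultiQC with mm10 or GRCm38, and the libraries were stranded mRNA per the labels' protocols. The sources used here give neither their order nor the strand setting or the annotation release. RSEM shares reads among similar genes, so near-identical copies and overlapping or antisense genes are uncertain.

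The deposited expected counts (12.5% of values in the 6 libraries were not whole) were rounded and filtered with filterByExpr (minimum count 10, minimum total 15). They were scaled by trimmed means and fitted over 6 groups with edgeR 4.0.16 (R 4.3.3), prior count 0.125, no covariates. The quasi-likelihood test was adjusted by Benjamini-Hochberg over 15794 genes (threshold 0.05), and the script was tested on simulated data. The biological coefficient of variation was 17.5%, and 13173 to 13417 genes had at least 10 counts in each of the 6 libraries. The deposited TPM values compared levels between genes. DESeq2 1.42.0, other scalings, filters, libraries left out, a replicate block and fits with other libraries were alternatives. Folds against a group with no read use a floor of 3 counts over that group and cover counting error only. No replicate pair agreed within sampling noise (chi-square per gene 11.2 to 87.3).

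The members and lists were chosen with earlier results of these data known. Named genes were 34 core genes, the 10 largest rises and falls (no overlap, a minimum of 10 CPM throughout the higher group), up to 2 genes each way per list with markers near 0, split pairs (at most 4 a family) and untested pair genes. Other pair genes in the text were chosen after their values were seen, and a few genes that the rule names, with 1 split pair, are not reported here. Promoters are RefSeq windows of GRCm38.p6, and gene coordinates are GENCODE's on GRCm38.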

Additional observations from a re-analysis of the deposited data

Results flagged for a closer look

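In 16 cases the macrophage-line change of a named gene in HPV-positive MEER differed from that in another model by a test of the difference itself (edgeR quasi-likelihood, adjusted p at most 0.05). Against HPV-negative MEER the log2 changes differed by 5.46 for Csf1, 5.73 for Cd274, 6.60 for Cxcl12, 2.06 for Vegfa, 1.20 for Spp1, −1.50 for Ccl2 and −2.15 for Cx3cr1. Against SCCVII they differed by 8.70 for Csf1, 8.57 for Cd274, 10.17 for Osm, 5.70 for Vegfa, 3.87 for Cxcl12, 3.51 for Osmr, 3.01 for Ccl2, 2.23 for Csf1r and −2.62 for Cx3cr1. For Cxcl12 both compartments had higher means in the other models. Its line means were 397 CPM in HPV-negative MEER and 153 CPM in SCCVII against 0.353 CPM here. Its macrophage means were 2.6 CPM (SD 2.96) in HPV-negative MEER and 6.86 CPM in SCCVII against 0.22 CPM here. For Cd274 both compartments differed, macrophages at 703, 96.1 and 24 CPM and lines at 0.738, 5.18 and 9.17 CPM in HPV-positive MEER, HPV-negative MEER and SCCVII.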

How the results depend on the processing

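Each count stayed within 1.5 times of the reported value under all alternatives but those in the next 3 sentences. Tested against a 2-fold change, 3878 genes were higher and 3466 lower. With library size only, 1937 genes were higher and 5532 lower in the difference from HPV-negative MEER. With 2-fold in place of 4-fold, 17 line-to-macrophage and 19 macrophage-to-line pairs were split. Within 1.5 times, 8-fold gave 8 and 10 pairs and 5 CPM gave 7 and 11. DESeq2 called 6445 higher and 5967 lower and gave 9 and 12 pairs. Which direction held more genes turned for macrophages against line with library size only (4255 higher, 8583 lower), upper quartile (5666, 6955), all 23 libraries (5583, 6692) and no filter (6481, 6484). It turned for the difference from HPV-negative MEER with DESeq2 (3551, 3258) and its size factors (3377, 3104), and for SCCVII with library size only (2990, 6052), upper quartile (4019, 4676), no filter (3998, 4290) and all 23 libraries (3590, 3615). Without HPV-negative macrophage library 4 it turned for macrophages against line (6347 higher, 6445 lower) and for SCCVII (4456, 4562). For SCCVII it also turned without HPV-positive macrophage libraries 1 and 3, a fit with a lone HPV-positive macrophage library.

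Leaving out 1 library gave 6167 to 6505 genes higher and 5978 to 6445 lower, 2781 to 3135 and 3042 to 3530 for the difference from HPV-negative MEER, 4092 to 4591 and 3897 to 4562 for SCCVII, and 9 to 11 and 12 to 13 pairs. Without macrophage libraries 1 and 3, chosen after seeing the data, 5600 genes were higher and 5484 lower, and none of the 21 split pairs was lost. The lone macrophage library was then assumed to vary like the other groups.

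The labels do not say that replicate numbers pair a macrophage pool with a line aliquot, and same-number deviations correlated at −0.017, −0.031 and −0.015. With a replicate block the counts were 6347 and 6155, 3024 and 3119 against HPV-negative MEER, 4632 and 4223 against SCCVII, and 10 and 12 pairs. With the block and only the 6 libraries they were 5632 and 5437.

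Among named genes, signs turned for uncalled values: Ackr3 (−0.39) and Inhba (−0.13) with library size only, Nrp1 with library size only (−0.57), upper quartile (−0.12) and all 23 libraries (−0.08), and Mfge8 with DESeq2 (0.03), its size factors (0.03) or without macrophage libraries 1 and 3 (0.26). Leaving out 1 library, Nrp1 ranged from −0.09 to 0.33, Mfge8 from −0.20 to 0.15, Tek from −1.11 to 0.39 (0.72 without macrophage libraries 1 and 3) and the difference of Csf1r from HPV-negative MEER from −0.91 to 0.24. With library size only, Ctsl and Lamp1, higher in the reported fit, came to −0.40 and −0.37. Of the other values of single named genes, 85 lost their call, 12 gained one and 5902 did neither. The causes were not tested. Depth limits genes of a few reads, such as Csf2, Osmr and Cxcl12.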
